A study of Mus musculus with 2 samples.

Results

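Cxcl12, Cxcr4 and Ackr3, the chemokine known as stromal cell-derived factor and the pair of receptors that bind it, were examined in tissue from below and above the dorsal aorta of the mouse embryo. The 3 genes were found by Entrez gene number among 24675 genes with a symbol, and each was read by 1 array feature. The ventral sample was tissue cut from underneath the aorta, and the dorsal sample was tissue cut between the notochord and the aortic roof. Per the labels' protocol both were cut from the same embryos of the C57Bl/6 strain, collected at embryonic day 10.5 with no treatment or mutation named. The sources used here do not give the number of embryos. There was 1 array per tissue, each named biological replicate 4, so the differences carry no error and no p-value, and none could be checked in a second sample. The series design also names later stages, which were not analysed here. The pieces were cut by laser from unfixed cryosections and hold whatever cell types lay there, so the values are averages over mixed tissue.

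Cxcl12 is a secreted chemokine that is held on heparan sulphate at cell surfaces and attracts cells along its gradient. Its receptor Cxcr4 couples to inhibitory G proteins and drives migration and retention. The atypical receptor Ackr3, also called Cxcr7, works through arrestins and removes the ligand from the surroundings. In the bone marrow, Cxcl12 made by stromal reticular cells holds hematopoietic stem cells in their niche. In the embryo it guides blood progenitors, germ cells, muscle precursors and vessels. The region around the aorta gives rise to the first hematopoietic stem cells, and the title of the series names a niche for them below the aorta.

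The arrays read RNA levels and not promoter activity, and no binding or chromatin was measured. The sequences around the 3 transcription starts are shown as background. Each runs from 250 bases before to 50 bases after the start in RefSeq, build GRCm38.p6, and capitals mark every match on either strand to 6 short motifs.
Cxcl12: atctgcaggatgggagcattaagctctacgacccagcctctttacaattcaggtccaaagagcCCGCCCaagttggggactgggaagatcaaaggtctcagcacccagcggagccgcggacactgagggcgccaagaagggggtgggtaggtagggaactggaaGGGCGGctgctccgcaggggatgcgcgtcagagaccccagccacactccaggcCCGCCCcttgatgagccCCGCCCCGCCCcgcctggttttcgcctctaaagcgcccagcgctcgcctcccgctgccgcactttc
Cxcr4: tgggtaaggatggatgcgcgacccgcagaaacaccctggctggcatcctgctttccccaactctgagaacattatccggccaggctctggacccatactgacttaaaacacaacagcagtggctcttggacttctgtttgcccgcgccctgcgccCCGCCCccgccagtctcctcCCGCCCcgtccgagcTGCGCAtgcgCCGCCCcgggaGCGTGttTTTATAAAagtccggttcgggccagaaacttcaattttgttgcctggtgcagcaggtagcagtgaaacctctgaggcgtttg
Ackr3: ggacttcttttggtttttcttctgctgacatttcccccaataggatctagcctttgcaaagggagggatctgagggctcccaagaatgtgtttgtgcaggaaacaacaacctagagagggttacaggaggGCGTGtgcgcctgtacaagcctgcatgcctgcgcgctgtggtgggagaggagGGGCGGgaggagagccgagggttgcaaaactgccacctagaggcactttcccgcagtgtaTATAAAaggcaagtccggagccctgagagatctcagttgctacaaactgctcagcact
The Cxcl12 window is chr6:117168285-117168584 on the plus strand, the Cxcr4 window chr1:128592250-128592549 on the minus strand and the Ackr3 window chr1:90203730-90204029 on the plus strand. The motifs were the TATA box TATAAA, the GC box GGGCGG, the NRF1 core TGCGCA, the hypoxia cores ACGTG and GCGTG and the forkhead motif TGTTTAC. Cxcl12 held 5 GC boxes, 2 of which overlap by 1 base, and none of the other motifs. Cxcr4 held 3 GC boxes, 1 NRF1 core, 1 GCGTG core and a TATA box that matches on both strands within 8 bases. Ackr3 held 1 TATA box, 1 GC box and 1 GCGTG core. Of 32851 promoter windows of the same length, 35.7% held a GC box, 13.6% a TATA box, 32.4% the GCGTG core and 7.76% the NRF1 core. The forkhead motif was in 3.65% and the ACGTG core in 19.6% of windows, and these letters were in none of the 3 windows above. The share of G and C was 64.7% for Cxcl12, 59.3% for Cxcr4 and 54.0% for Ackr3, against a median of 52.7% over all windows. A match is a run of letters and not a shown binding site.

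Cxcl12 differed most between the tissues among the 3 genes. Its log2 level was 7.44 on the ventral array and 10.96 on the dorsal array, a difference of -3.52, ventral minus dorsal, so that the ligand was 11.5-fold lower in ventral tissue. Both levels were far above the background mark of 3.92, which is the 95th percentile, taken across both arrays, of 1365 olfactory and vomeronasal receptors, a group taken to be silent in these tissues. None of those 1365 genes reached the Cxcl12 level of its array, and both Cxcl12 levels also exceeded their 99th percentile, 5.48. Of the 3 genes, only Cxcl12 reached a 2-fold difference. Of 13982 genes kept because the brighter of their arrays reached the median level of 3.10, 682 had a dorsal level 2-fold or more above the ventral one, or 4.88%, and 9.44% the reverse. Only 24 kept genes, Cxcl12 included, were lower in ventral tissue by as much as Cxcl12, or 0.172%, and 99 were that far apart in either direction. A lower signal can come from fewer cells that make the transcript or from less of it per cell, and in whole tissue these cannot be told apart. The array gives 1 value per gene, so splice forms of Cxcl12 were not separated.

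**Figure D1:**
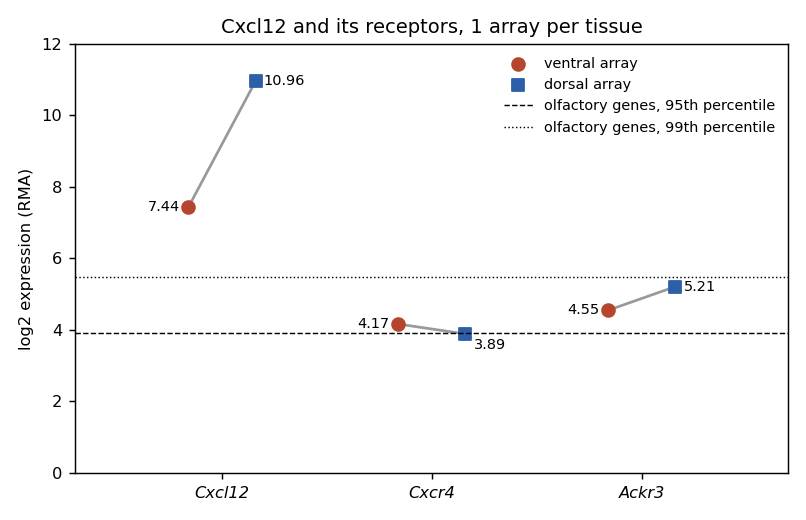
Log2 expression (vertical axis) of Cxcl12, Cxcr4 and Ackr3 on the ventral array (circles) and the dorsal array (squares), 1 array per tissue and so no error bars; lines mark percentiles 95 and 99 of the olfactory and vomeronasal genes, 3.92 and 5.48. Cxcl12 lies above both lines on both arrays, at 7.44 and 10.96, while both receptors stay below the upper line.

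Cxcr4, the signalling receptor, was close to background in both tissues. Its log2 level was 4.17 on the ventral array and 3.89 on the dorsal array, 0.25 above the mark and 0.03 below it. The measured difference was 0.28, ventral minus dorsal. Among the 1365 olfactory and vomeronasal genes, 46 were at least as high as Cxcr4 on the ventral array and 85 on the dorsal array. Of the kept genes, 26.1% were higher in ventral tissue by at least as much. A difference in Cxcr4 was therefore not detectable at this signal.

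Ackr3, the scavenging receptor, had a log2 level of 4.55 on the ventral array and 5.21 on the dorsal array. Both levels lay above the 95th percentile of the olfactory and vomeronasal genes and under their 99th, with 30 and 21 of those genes at least as high on the ventral and dorsal arrays. The difference of -0.66, ventral minus dorsal, made Ackr3 1.58-fold lower in ventral tissue, and 11.9% of kept genes were lower there by at least as much. Ackr3 thus had the sign of Cxcl12 with a smaller size, the 2 differences being 2.86 apart on the log2 scale. The median of all kept genes, -0.12, also had that sign.

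**Figure D2:**
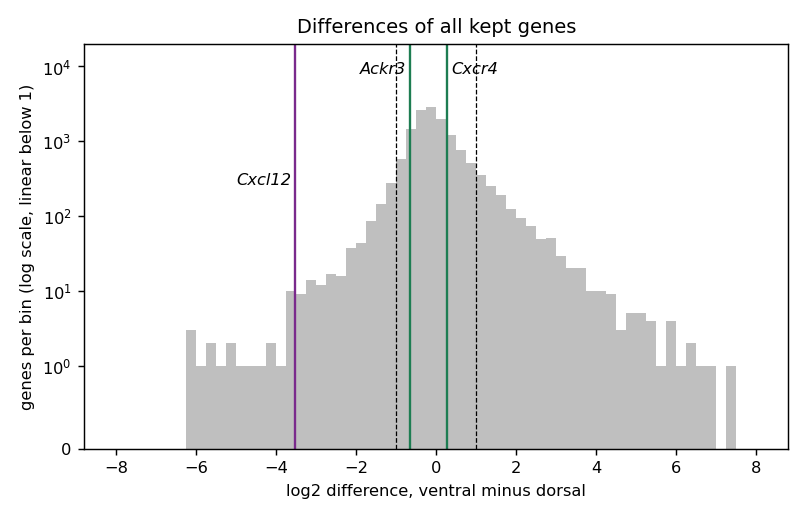
Number of kept genes (vertical axis, log scale, linear below 1) by their log2 difference, ventral minus dorsal (horizontal axis, bins of 0.25); dashed lines mark 2-fold and coloured lines the 3 genes. Cxcl12 lies in the far left tail at -3.52, while Ackr3 at -0.66 and Cxcr4 at 0.28 lie inside the 2-fold lines.

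The genes whose difference lay closest to that of Cxcl12, among 4148 protein-coding genes above the mark on both arrays, were Eif4ebp1, Pcdhgb1, Gstp1, Aimp2 and Ssr3. Their differences, ventral minus dorsal over the 2 arrays, ran from -3.71 to -3.46, within 0.19 of that of Cxcl12. Eif4ebp1 encodes a repressor of translation initiation, Gstp1 a glutathione transferase, Aimp2 a scaffold of the tRNA synthetase complex and Ssr3 a subunit of the translocon-associated complex. Pcdhgb1 shares exons with other protocadherins of its cluster and Gstp1 has a close paralog, so both values are uncertain. For Ackr3 the closest were Etf1, Dync1i2, Mycn, Bag1 and Mcm5, all within 0.0029 of its difference. Cxcr4 was under the mark on the dorsal array, so no such genes were sought for it.

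The other chemokines and their receptors were mostly at background. Here and below, counts of genes up by 2-fold or more are on measured values, as are the shares of 9.44% and 4.88% of all kept genes. A second count, with lower levels raised to the mark, is given where it differs. Its share over all kept genes was not computed, so the second counts cannot be set against a background. Of 35 other chemokine ligands measured, 31 were under the mark on both arrays, and of 20 kept 0 were up by 2-fold or more in ventral tissue and 1 in dorsal tissue. That gene was Ccl1, a T cell chemokine, at log2 levels of 2.34 on the ventral and 3.39 on the dorsal array, both under the mark, so no fold is given, and it lay inside 2-fold under quantile normalization, centring or a loess on level. Ccl25, a thymic and gut chemokine, was at 3.25 in ventral and 4.25 in dorsal tissue, at least 1.26-fold lower in ventral tissue. Ccl9 was at 4.58 and 4.81 and Ccl5 at 4.26 and 4.42 on the ventral and dorsal arrays, the only ligands besides Cxcl12 above the mark on both, and were named after their values were seen. Cxcl14, which has been reported to bind Cxcr4, was at 2.74 and 2.93, and Cxcl11, the other chemokine ligand of Ackr3, at 2.31 and 2.69 on the ventral and dorsal arrays, all under the mark. The median difference of the kept ligands was -0.20, against -0.12 over all kept genes.

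Of 20 other chemokine receptors, 17 were under the mark on both arrays and 0 of 8 kept were at least 2-fold apart. Cx3cr1, the fractalkine receptor of macrophages and their precursors, was the only one of them above the mark on both arrays, with log2 levels of 5.62 on the ventral and 6.07 on the dorsal array. Of 9 macrophage markers measured, Cx3cr1 among them, 7 were under the mark on both arrays. Cxcr3, the other receptor of Cxcl11, was at 3.51 and 3.67, and Ccr9, the receptor of Ccl25, at 3.24 and 3.83 on the ventral and dorsal arrays, all under the mark. Ccr10, a receptor of epithelial chemokines, was at 2.60 in ventral and 3.19 in dorsal tissue. The receptors' median difference was -0.23.

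**Figure D3:**
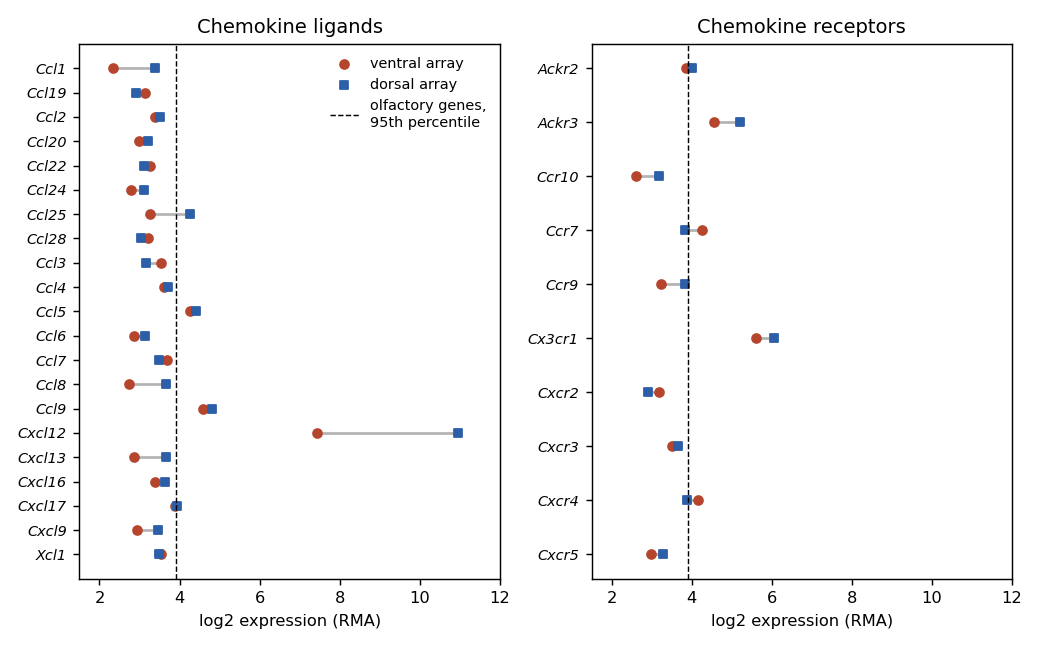
Log2 expression (horizontal axes) of the kept chemokine ligands (left) and receptors (right), Cxcl12, Cxcr4 and Ackr3 included, on the ventral array (circles) and the dorsal array (squares); the dashed line is the 95th percentile of olfactory and vomeronasal genes, 3.92. Cxcl12 is the only ligand with a wide gap above the line, and levels of different genes are not comparable because their probes differ.

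Of 11 kept genes for other ligands and partners of the receptors, 1 was up by 2-fold or more in ventral tissue and 1 in dorsal tissue, or 1 and 0 with lower levels raised to the mark. Mif, a cytokine that also binds Cxcr4, was at log2 levels of 12.56 on the ventral and 12.54 on the dorsal array, while Cd74, its own receptor, was at 2.89 and 3.16, under the mark. Hmgb1, a nuclear protein that binds Cxcl12 outside the cell, was at 3.20 on the ventral and 4.55 on the dorsal array, at least 1.55-fold lower in ventral tissue. Mif and Hmgb1 have processed pseudogenes whose sequence probes may also read, so their values are uncertain. Itgb1, the integrin beta chain that chemokine signals activate, stood at 7.59 in ventral and 6.49 in dorsal tissue, 2.14-fold higher in ventral tissue, and was below 2-fold, at 0.78 and 0.89 on the log2 scale, under quantile normalization and after a loess on level. Adm, adrenomedullin, a peptide that Ackr3 can take up, was at 3.04 in ventral and 2.68 in dorsal tissue, both under the mark, as was Ramp1, a coreceptor of peptide hormone receptors, at 2.60 and 3.30.

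Proteases known to cut Cxcl12 were near background with 1 exception. Mmp14, a membrane-bound matrix metalloprotease, had log2 levels of 5.85 on the ventral and 4.46 on the dorsal array and was 2.61-fold higher in ventral tissue, the opposite direction to Cxcl12. Dpp4, the peptidase that inactivates Cxcl12 by trimming its start, was at 2.23 in ventral and 2.36 in dorsal tissue. Mmp2 was at 3.49 and 3.73 and Mmp9 at 2.79 and 3.14 on the ventral and dorsal arrays. Of 12 proteases measured, 11 were under the mark on both arrays.

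Among carriers and enzymes of heparan sulphate, the sugar chain that holds Cxcl12 in place, 1 of 19 kept was up by 2-fold or more in ventral tissue and 2 in dorsal tissue, or 0 and 2 with lower levels raised to the mark. Sulf2, an enzyme that removes sulphate groups from these chains outside the cell, was at log2 levels of 7.28 on the ventral and 8.72 on the dorsal array, 2.72-fold lower in ventral tissue. Its paralog Sulf1, named after its values were seen, was at 4.95 and 4.62. Sdc3, a membrane heparan sulphate proteoglycan, was at 3.14 in ventral and 5.22 in dorsal tissue, at least 2.47-fold lower in ventral tissue, and Gpc6, a glypican, at 4.08 and 3.04, at least 1.12-fold higher there. Gpc3, a glypican also named after its values were seen, was at 10.10 on the ventral and 10.09 on the dorsal array. The median difference of the group was -0.06.

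Downstream of the receptors, 4 of 31 kept were up by 2-fold or more in ventral tissue and 2 in dorsal tissue, or 3 and 1 with lower levels raised to the mark. Arrb1, an arrestin that both receptors can recruit, was 2.55-fold higher in ventral tissue, with log2 levels of 6.27 against 4.92, whereas Arrb2, the other arrestin of this type, was at 3.98 and 4.19. Gnai3, an inhibitory G protein subunit, was at 8.13 in ventral and 6.84 in dorsal tissue. Rgs5, a brake on G protein signalling found in pericytes, was at 4.15 and 2.78, at least 1.18-fold higher in ventral tissue. Pik3ca, a catalytic subunit of phosphoinositide kinase, was at 5.08 in ventral and 3.91 in dorsal tissue, at least 2.24-fold higher in ventral tissue. The 2 counted in dorsal tissue were Stat3, a transcription factor, at 2.77 on the ventral and 4.17 on the dorsal array, at least 1.19-fold lower in ventral tissue, and Pxn, the adhesion protein paxillin, at 4.38 and 5.53. Gnai3, Pik3ca and Pxn were named after their values were seen to complete these counts. The group's median difference was -0.22.

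Of 14 transcription factors with known links to Cxcl12 or Cxcr4, all kept, 1 was up by 2-fold or more in ventral tissue and 1 in dorsal tissue. Ebf1, which acts with Ebf3 in Cxcl12-producing marrow stroma, had log2 levels of 4.12 on the ventral and 7.24 on the dorsal array and was 8.71-fold lower in ventral tissue. Ebf3 was at 4.58 in ventral and 5.07 in dorsal tissue, and Foxc1, a forkhead factor needed for the same stromal cells, at 4.86 and 5.44. The 3 factors had the sign of Cxcl12, but so did the median of all kept genes, -0.12. Only Ebf1 of the 3 was at least 2-fold apart. Nr2f2, a nuclear receptor of veins and mesenchyme, stood at 6.85 in ventral and 4.91 in dorsal tissue, 3.83-fold higher in ventral tissue. Hif1a, the hypoxia factor that can raise both Cxcl12 and Cxcr4, was 1.91-fold higher there at 7.44 against 6.51, and was past 2-fold only after centring, at 1.05 on the log2 scale. The median of the 14 was -0.25.

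Of 14 measured genes that mark the Cxcl12-rich reticular cells of adult marrow, 8 were under the mark on both arrays. Of 9 kept, 6 were within 2-fold, 2 were up by 2-fold or more in ventral tissue, and 1, Ebf1, in dorsal tissue. Their median difference was -0.14. Kitl, which encodes stem cell factor, was at log2 levels of 7.47 on the ventral and 2.56 on the dorsal array, at least 11.7-fold higher in ventral tissue. Pdgfra, a mesenchymal growth factor receptor, was 2.54-fold higher there at 5.47 against 4.13. Cxcl12 and Kitl, both secreted niche factors, therefore had opposite signs. Over the 8 groups, which share some genes, 172 genes were measured and 113 kept, of which 10 were up by 2-fold or more in ventral tissue and 7 in dorsal tissue, or 8 and 4 with lower levels raised to the mark. On measured values these were 15.0% of the kept genes, near the 14.3% of the whole kept set that was this far apart. No such share was computed for the second counts.

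**Figure D4:**
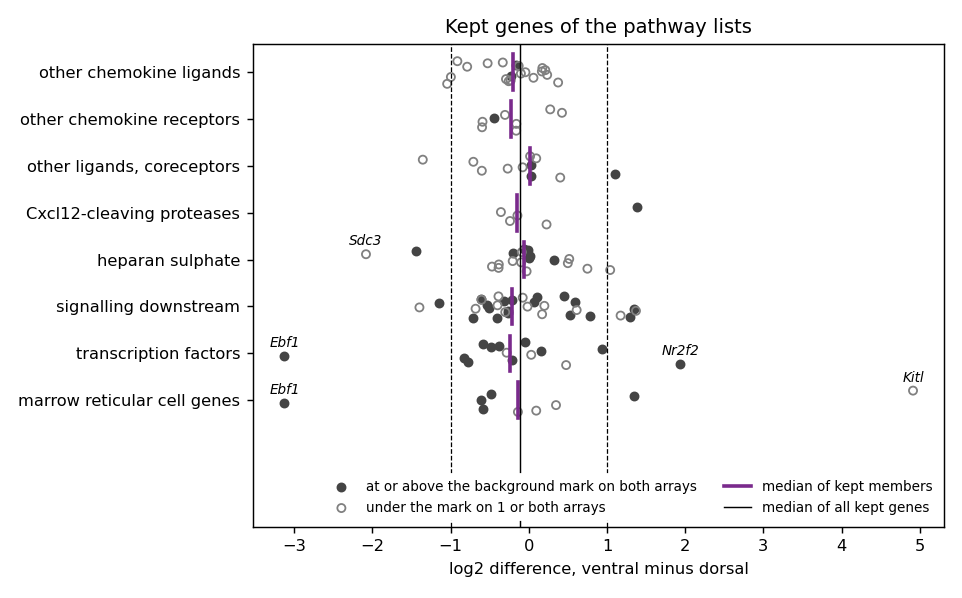
Log2 difference, ventral minus dorsal (horizontal axis), of the kept genes in 8 groups around Cxcl12 (rows); filled points were at or above the background mark on both arrays, thick bars are group medians, the thin line is the median of all kept genes, -0.12, and dashed lines mark 2-fold. Ebf1 at -3.12 and Kitl at 4.91 lie farthest out, and the group medians lie between -0.25 and 0.02.

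Markers of tissues next to the cuts were set beside Cxcl12. Over all kept genes, 9.44% were up by 2-fold or more in ventral and 4.88% in dorsal tissue, with a median difference of -0.12. Of 11 kept markers of the sclerotome, the mesenchyme around the notochord, 0 were up that far in ventral tissue and 3 in dorsal tissue (2 with lower levels raised to the mark), with a median difference of -0.90. Of 7 kept notochord markers 0 were up that far in ventral tissue and 2 in dorsal tissue (1 with lower levels raised), the median being -0.46. As mean log2 levels over the measured list, sclerotome markers stood at 4.19 in ventral and 4.98 in dorsal tissue and notochord markers at 3.67 and 4.03. Of 11 measured sclerotome markers 8 reached the mark on at least 1 array and 3 were under it on both. Pax1, a defining sclerotome gene named after its values were seen, was among the 3, at 3.20 in ventral and 3.73 in dorsal tissue. Of 9 kept coelomic epithelium markers 3, and of 8 kept smooth muscle and pericyte markers 4, were up that far in ventral tissue and 0 in dorsal tissue, with medians of 0.81 and 1.07. With lower levels raised to the mark, 2 and 3 of these were up in ventral tissue. The part of these tissues in the Cxcl12 difference was not tested.

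Markers of cell types known to carry Cxcr4 differed in how far they were detected. Of 12 hematopoietic progenitor markers 11 were under the mark on both arrays, including Kit at 3.07 on each array and Ptprc, the leukocyte surface phosphatase, at 2.44 in ventral and 2.24 in dorsal tissue. Only Gfi1b, named after its values were seen, was above the mark on both arrays, at 5.28 in ventral and 4.66 in dorsal tissue. Of 12 endothelial markers 6 were under the mark on both arrays, and of 9 kept 3 were up by 2-fold or more in ventral tissue (2 with lower levels raised to the mark) and 0 in dorsal tissue, beside 9.44% and 4.88% of all kept genes. Cdh5, VE-cadherin, was the farthest apart, at 6.64 in ventral and 4.22 in dorsal tissue. Of 5 measured markers of migrating muscle precursors 3 were under the mark on both arrays and 2 reached it in dorsal tissue alone, and the median difference of the 3 kept was -0.47. The 2 were Pax7, a muscle precursor factor, at 3.15 in ventral and 4.18 in dorsal tissue, at least 1.20-fold lower in ventral tissue, and Eya1, a transcriptional coactivator, at 3.59 and 4.06, both named after their values were seen. Of the kept macrophage, erythroid, neural crest and neural tube markers, 5, 7, 7 and 3 in number, 1 neural crest gene was up by 2-fold or more in ventral tissue, and 1 erythroid and 1 neural tube gene in dorsal tissue. The neural crest gene was not, with its lower level raised to the mark. The median differences of these lists were 0.10, 0.05, -0.26 and -0.05. Of 8 erythroid, 9 neural crest and 8 neural tube markers measured, 2, 7 and 7 were under the mark on both arrays. How far any of these cells contributed to the Cxcr4 and Ackr3 signals was not tested.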

How the data were processed

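The authors deposited 1 log2 expression value for each gene on each array, made with Affymetrix Expression Console and RMA per the submitters' processing notes, from Mouse Gene 2.0 ST arrays. RMA subtracts a modelled background, equalises probe distributions and fits a median polish per gene. Versions, build, probe annotation and which arrays were normalized together: not given in the sources used here. Per the labels' protocols, 200 to 1000 pg of total RNA from 20 µm cryosections was amplified by a single-primer isothermal method, which may drop or inflate single transcripts by chance. Values ran from 1.47 to 14.2 on the ventral and from 1.45 to 14.1 on the dorsal array, with medians of 3.02 and 3.15; the 2 arrays limit the precision.

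Of 25429 features, 24675 had 1 symbol in the platform annotation, 0 several and 754 none; the last were left out. All 24675 matched RefSeq by gene number. Tissue was assigned by title. Genes were kept and background marks set as stated at first use; a fold whose lower level is under the mark is a lower bound computed from the mark. With 1 array per tissue no test was made. The genes named were the 3 members, 5 nearest in difference, up to 3 kept genes per group with the greatest difference, and 14 further genes whatever their values. The members, the 8 gene groups, the 13 marker lists and the background reference were chosen with earlier results of these data known. Promoters came from RefSeq, GRCm38.p6. The 2-fold cutoff was run on simulated differences with an assumed noise level, which does not test the counts reported here. Alternatives were a 1.5-fold threshold, other floors, centring, column-wise quantile normalization and a loess on level with a span of 0.3. Python 3.11.15, numpy 2.4.6, pandas 2.3.3, statsmodels 0.14.6 and matplotlib 3.10.9 were used.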

Additional observations from a re-analysis of the deposited data

How the results depend on the processing

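The sign of all 3 differences and their side of 2-fold held under each of the 3 scaling alternatives. The Cxcl12 difference ran from -3.79 to -3.41, that of Ackr3 from -0.86 to -0.54 and that of Cxcr4 from 0.28 to 0.40 on the log2 scale. With the 99th percentile of the olfactory genes as the mark, neither receptor has a measurable fold, and Cxcl12 kept its value. A 1.5-fold threshold gave 2286 genes for ventral and 2099 for dorsal tissue out of 13982 kept. In the 8 groups it gave 36 of 113 kept genes in place of 17. A floor at the 99th percentile, added after seeing the data, gave 792 and 335 genes and 9 in the groups. Fewer genes are tested under that floor and their number was not recorded, so these counts have no share beside them. With the floor as reported the counts were 1320 in ventral and 682 in dorsal tissue, or 65.9% of calls in ventral, against 59.3% after quantile normalization and 74.3% after centring. Centring moves all differences up by 0.12, and after the loess their median was -0.0033, against -0.12 as reported. Per the labels' protocol both tissues came from the same embryos, so each difference was taken within a pair. A paired test was not possible with only 1 such pair. With 1 array per tissue, none could be left out, so variation between embryos, dissections and amplifications is unknown for every value.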

Other observations

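Dppa3, a germ cell gene, was at a log2 level of 5.92 on the ventral and 2.95 on the dorsal array, at least 4.01-fold higher in ventral tissue. Germ cells follow Cxcl12 through Cxcr4 on their way to the gonadal ridge. Of the other germ cell markers measured only Sall4, which other embryonic cells also express, was above the mark, at 4.58 in ventral and 4.72 in dorsal tissue. Ddx4, at 2.44 and 2.51, and Nanos3, at 3.38 and 2.98, were under it on both arrays. So were Dnd1, at 3.12 and 3.79, and Pou5f1, at 2.97 and 3.42. Of 6 kept germ cell markers 1, Dppa3, was up by 2-fold or more in ventral tissue and 0 in dorsal tissue. Over all kept genes these shares were 9.44% and 4.88%. The median difference of the 6 was -0.08. Dppa3, Sall4, Ddx4, Nanos3, Dnd1 and Pou5f1 were named after their values were seen.

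Hey1, a Notch target used here as an arterial marker, was also lower in ventral tissue, at 5.77 against 7.49 in dorsal tissue, while 8 of the 9 kept arterial markers were within 2-fold. It was named after its values were seen, and whether it shares cells with Cxcl12 was not tested.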
